A study of Arabidopsis thaliana with 28 samples.

Results

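The genes described here code for proteins that build ribosomes in the nucleolus of Arabidopsis thaliana root tips. They are a list of 42 loci of nucleolar proteins and of factors that assemble the ribosomal precursors, read on Affymetrix ATH1 arrays. A locus counted as measured where a probe set, a group of short probes read as 1 signal, was paired with that gene alone in the platform annotation. This held for 25 of the 42 loci. The measured genes were 2 of 7 loci of box C/D small nucleolar ribonucleoproteins (snoRNPs), 2 of 4 of H/ACA snoRNPs, 0 of 2 nucleolin loci, 10 of 14 of the small subunit processome, 8 of 11 of large subunit assembly and 3 of 4 of ribosomal RNA (rRNA) base modification. The other 17 were not measured by this rule. They included the fibrillarin genes FIB1 and FIB2, the nucleolin genes NUC-L1 and NUC-L2, NAP57, NOP10 and PWP2, and the loci AT5G27120 and AT5G27140, whose probe set was paired with several genes. The annotation used did not list 8730 of the 22746 probe sets, so a locus not measured here can still have a probe set on the array. Most of the 17 loci carry a gene symbol, whereas most of the 25 measured ones have a locus number alone.

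All roots were of the ecotype Columbia-0 and were labelled as 5 days old, counted from germination in the sample characteristics and from imbibition in the treatment protocol. Hydrogen peroxide (H2O2) was given at 1 mM in the MS medium to which the seedlings were transferred, control plants went to MS medium without it, and the root tips were cut by hand under a microscope into the meristematic zone, where cells divide, and the elongation zone, where they expand. The 28 arrays formed 14 groups of 2 biological replicates of 30 roots each. Both zones were taken at 0, 1, 3 and 6 h on control medium and at 1, 3 and 6 h on H2O2. Each signal is a linear intensity on an array scaled to the same trimmed mean, so a signal is compared only with signals of the same probe set. Fold changes were taken on log2(signal + 16), which understates the change of dim genes, and a gene was called where limma's moderated test gave an adjusted p under 0.05 (Benjamini-Hochberg over 22746 probe sets). The error behind each p-value and SE is the spread between replicates, pooled for each gene over all 14 groups and moderated by limma. It is therefore the same for both zones and is not the spread of the compared groups alone. The number of arrays limits the precision.

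Ribosomes are made in the nucleolus, where RNA polymerase I copies the rRNA genes into a long precursor. Box C/D and H/ACA snoRNPs guide the methylation and pseudouridylation of that precursor, the small subunit processome folds and cleaves its first part, and a second set of factors matures the large subunit. Dividing plant cells are known for large nucleoli, because each division has to supply new ribosomes to both daughter cells. Known roles given below come from work on yeast unless Arabidopsis is named.

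Arrays of 1 group correlated with r of 0.965 to 0.987 across probe sets. Without the 25 genes, the first principal component of all other probe sets held 75.4% of the variance and set the zones apart, with the meristematic arrays between -92.9 and -64.1 and the elongation arrays between 38.7 and 96.6. The elongation arrays at 0 h, at 38.7 and 53.5, lay nearest to the meristematic side. On the second component the 1 h control arrays numbered 1 lay at -2.40 for the meristematic and at 6.84 for the elongation zone, whereas the other 6 arrays of 1 h lay between -39.4 and -24.8. Results that use the 1 h control arrays are therefore also given without them where they differ.

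Each of the 25 genes was lower in the elongation zone than in the meristematic zone on control medium. By limma with Benjamini-Hochberg adjustment 25 of 25 were called lower, against 32.3% of all probe sets called lower and 58.3% called in either direction. The median log2 fold change of the 25 genes was -2.77, a 6.83-fold lower value, while the median over all probe sets was -0.02. Their range ran from -3.56 to -1.83. Ranked among all probe sets from the most negative change upwards, the genes lay between percentile 0.141 and percentile 4.36, with a median of 0.958. Nothing overlapped: in 25 of 25 genes the lowest of the 14 meristematic arrays stood above the highest of the 14 elongation arrays, which held for 18% of all probe sets.

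**Figure D1:**
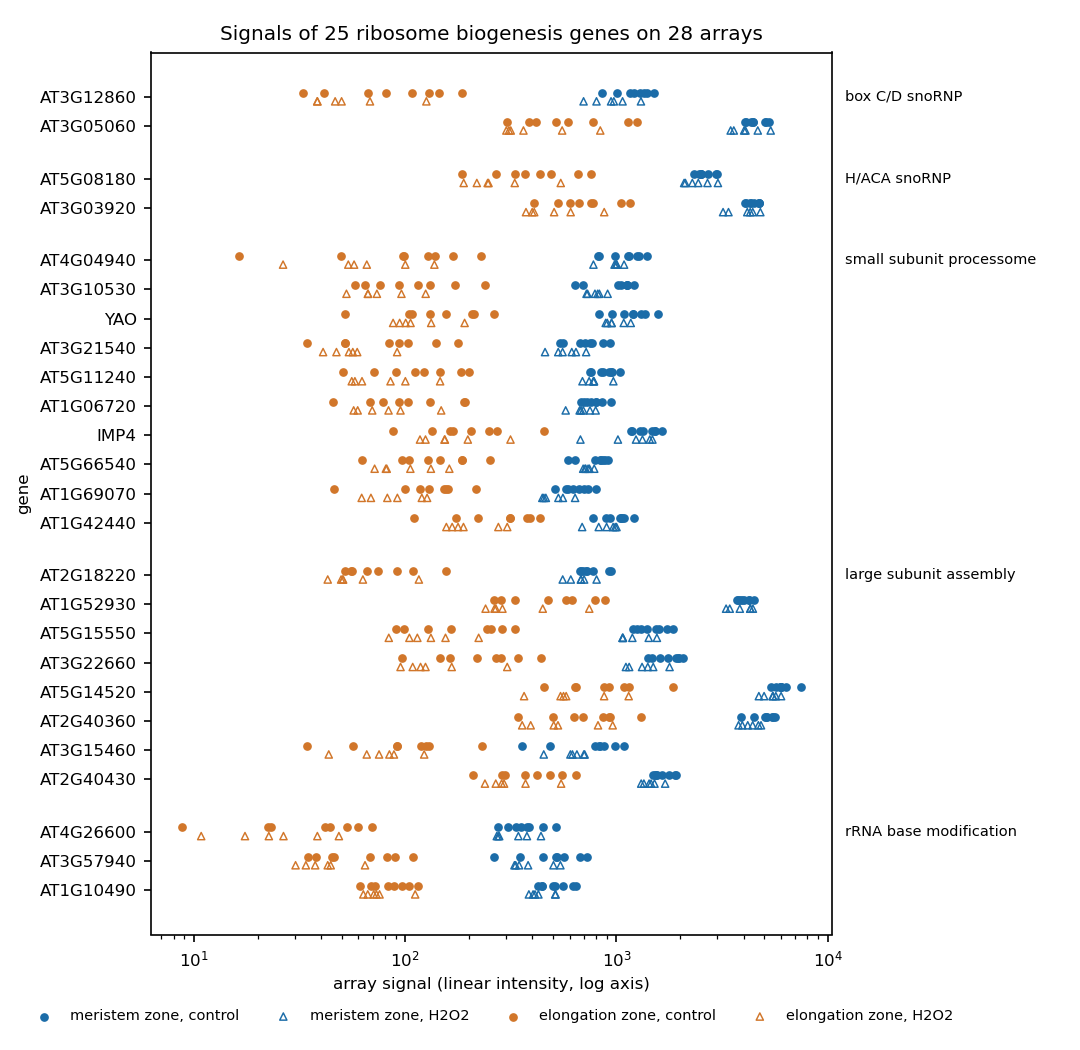
Signal of each of the 25 ribosome biogenesis genes on each of the 28 arrays (x axis, linear intensity on a log axis; y axis, genes by role). Points are single arrays, filled circles on control medium and open triangles on H2O2, blue for the meristematic and orange for the elongation zone; in every row the blue and orange points are separate.

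Both measured box C/D snoRNP genes were lower in the elongation zone. AT3G12860 codes for a protein of the NOP56 family, a core scaffold of these particles. Its signal was 852 at the lowest, 1253 at the median and 1497 at the highest of 8 meristematic control arrays, and 32.7, 94.4 and 186 on the 8 elongation control arrays. Every meristematic array was above every elongation array. The gap between the groups was wider than the spread within either on the linear scale. On the log scale the elongation arrays spread more widely than the gap. The log2 fold change of AT3G12860 was -3.56 ± 0.22 (SE), an 11.8-fold lower value and the largest decrease among the 25 genes (limma adjusted p = 1.26e-11). AT3G05060, of the NOP58 family, which pairs with NOP56 in the particle, had signals of 4077, 4438 and 5256 (lowest, median, highest) in meristematic and 303, 554 and 1245 in elongation zone arrays. Its highest elongation values were the arrays taken at 0 h, at 1140 and 1245, and even these were less than the lowest meristematic value.

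The H/ACA snoRNP genes changed by similar amounts. AT3G03920 codes for a protein of the GAR1 family, which binds the pseudouridine synthase of the particle. On control medium its signal was 4046, 4413 and 4747 (lowest, median, highest of 8) in meristematic and 406, 712 and 1159 in elongation zone arrays. The meristematic arrays lay close together and the elongation arrays spread more widely, without overlap. The log2 fold change of AT3G03920 was -2.62 ± 0.12 (limma adjusted p = 1.88e-13). AT5G08180, of the NHP2 family, which binds the guide RNA, had signals of 2332, 2509 and 2992 in meristematic and 185, 401 and 761 in elongation zone arrays, and its log2 fold change was -2.66 ± 0.18 (adjusted p = 3.84e-11).

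The 10 genes of the small subunit processome held both the second largest and the smallest decrease of all 25. AT4G04940, of the UTP21 family of WD40 proteins, had signals of 817, 1137 and 1395 (lowest, median, highest of 8) in meristematic and 16.3, 113 and 228 in elongation zone arrays on control medium. The elongation values of AT4G04940 varied most, and the lowest was at 1 h in the array numbered 2. Its log2 fold change was -3.28 ± 0.25 (limma adjusted p = 3.76e-10). AT1G42440, of the TSR1 family, which acts late on the small subunit in the cytoplasm of yeast, had signals of 775, 1045 and 1211 in meristematic and 110, 312 and 435 in elongation zone arrays. All 8 meristematic arrays of AT1G42440 were above all 8 elongation arrays. Its log2 fold change was -1.83 ± 0.20, a 3.56-fold lower value (adjusted p = 5.73e-08).

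Between these lay the other processome genes. YAO, a nucleolar WD40 protein known in Arabidopsis for its part in gamete and embryo development, fell by 2.92 ± 0.18 on the log2 scale, and AT3G10530, of the UTP7 family, fell by 3.00 ± 0.16. IMP4 and AT5G66540, of the MPP10 family, belong to 1 complex in yeast and had log2 fold changes of -2.72 ± 0.17 and -2.41 ± 0.16. AT1G06720, of the BMS1 family of GTPases, had -2.74 ± 0.15. AT3G21540, of the UTP12 family, had -2.88 ± 0.17, AT5G11240 had -2.80 ± 0.17 and AT1G69070, of the NOP14 family, had -2.22 ± 0.17. Each of these 8 genes passed the test (limma, Benjamini-Hochberg), with AT1G69070 the highest adjusted p at 2.71e-10.

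The 8 large subunit genes had log2 fold changes from -3.05 to -2.06. AT2G18220, of the NOC2 family, which takes part in moving the precursor out of the nucleolus, had the smallest p of the 25 genes. Its signal was 673, 721 and 943 (lowest, median, highest of 8) in meristematic and 51.9, 70.2 and 155 in elongation zone arrays on control medium. The groups were separated, and on the log scale the elongation arrays spread more widely than the meristematic ones. The log2 fold change of AT2G18220 was -3.05 ± 0.10 (limma adjusted p = 2.64e-15). AT2G40430, which codes for SMO4, the NOP53 type protein known in Arabidopsis from leaf growth, changed least, with signals of 1482, 1599 and 1913 against 209, 394 and 646. Its log2 fold change was -2.06 ± 0.13 (adjusted p = 2.42e-11).

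PES, BOP1 and WDR12 form 1 complex that is needed for large subunit rRNA maturation, and their Arabidopsis genes fell together. AT5G14520 (PES) had signals of 5409, 6028 and 7447 (lowest, median, highest of 8) in meristematic and 456, 897 and 1847 in elongation zone arrays. AT2G40360 (BOP1) had 3869, 5123 and 5611 against 344, 778 and 1312. AT5G15550 (WDR12) had 1199, 1465 and 1859 against 90.6, 204 and 331. None of the 3 overlapped between the zones, and AT2G40360 had a log2 fold change of -2.76 ± 0.19 and AT5G15550 of -2.90 ± 0.18. AT3G22660, of the EBP2 family of early large subunit factors, had -2.89 ± 0.19 (limma, all called).

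Both paralog pairs that could be read separately were lower in the elongation zone. The pair AT3G15460 and AT1G52930 codes for BRX1, an early factor of the large subunit. AT1G52930 had signals of 3701, 3972 and 4501 (lowest, median, highest of 8) in meristematic and 262, 527 and 879 in elongation zone arrays on control medium, a log2 fold change of -3.01 ± 0.18 (limma adjusted p = 1.15e-11). AT3G15460 had 359, 830 and 1087 against 34.2, 105 and 230, a log2 fold change of -2.73 ± 0.21 (adjusted p = 5.06e-10). The meristematic arrays of AT3G15460 were spread widely, with the lowest at 1 h and 3 h in the arrays numbered 2 (359 and 487), whereas those of AT1G52930 lay close together. Whether the pair differed in fold change was not tested, and a probe set can bind the transcript of a close paralog.

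Cytidine acetyltransferases of the yeast KRE33 and human NAT10 type, which modify small subunit rRNA, are coded by AT3G57940 and AT1G10490. On control medium AT3G57940 had signals of 262, 520 and 721 (lowest, median, highest of 8) in meristematic and 34.8, 56.9 and 109 in elongation zone arrays. AT1G10490 had 424, 505 and 644 against 60.9, 85.8 and 115, the narrowest elongation range of the 25 genes on the log scale. Their log2 fold changes were -2.72 ± 0.18 for AT3G57940 and -2.39 ± 0.10 for AT1G10490 (limma adjusted p = 2.88e-11 and 5.06e-14). AT4G26600, of the NOP2 family of rRNA methyltransferases, had signals of 274, 366 and 515 against 8.78, 42.8 and 69.5 and a log2 fold change of -2.87 ± 0.19. It was the only gene of the 25 with arrays under a signal of 16 (2 arrays). These were elongation arrays numbered 2, at 8.78 at 1 h on control medium and at 10.8 at 6 h on H2O2. Its fold change is understated, as are those of other dim genes.

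By role, the median log2 fold change was -3.23 for box C/D snoRNPs (n = 2), -2.64 for H/ACA snoRNPs (n = 2), -2.77 for the processome (n = 10), -2.83 for large subunit assembly (n = 8) and -2.72 for rRNA modification (n = 3). These medians differed by less than the range within the processome.

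Genes that act with the 25 fell as well. Of 11 listed loci of RNA polymerase I and III and their factors 7 were measured and 7 of 7 were lower, with a median log2 fold change of -2.67. Among them were NRPA1 (-2.67 ± 0.18) and NRPA2 (-2.79 ± 0.21), the largest subunits of the enzyme that copies rRNA genes, AT3G13940 (-3.22 ± 0.24) and AT3G25940 (-2.88 ± 0.20). Of 39 other assembly factors 19 were measured and 19 of 19 were lower, with a median of -2.26, led by AT5G14050 (-2.97 ± 0.17), AT5G38720 (-2.73 ± 0.14), the RNA helicase gene PRH75 (-2.70 ± 0.17) and AT3G23620 (-2.66 ± 0.19). Transcripts for proteins of the finished cytosolic ribosome fell less. Of 45 listed loci 15 were measured and 15 of 15 were lower, with a median of -0.68, a 1.60-fold lower value. The largest decrease was that of AT5G39850 (-2.25 ± 0.21), a gene of the small subunit protein RPS9, followed by AT5G02870 (-0.86 ± 0.08), AT5G28060 (-0.85 ± 0.10) and AT3G09630 (-0.82 ± 0.08). A second RPS9 gene, AT5G15200, singled out after its value was seen, had -0.53 ± 0.08. The smallest decrease of the 25 genes, -1.83, was larger than that of 14 of the 15 ribosomal protein genes. Those 14 were bright, with no array under a signal of 2403, whereas the lowest signal of AT5G39850 was 67.6. The part of the signal level in this difference was not tested.

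**Figure D2:**
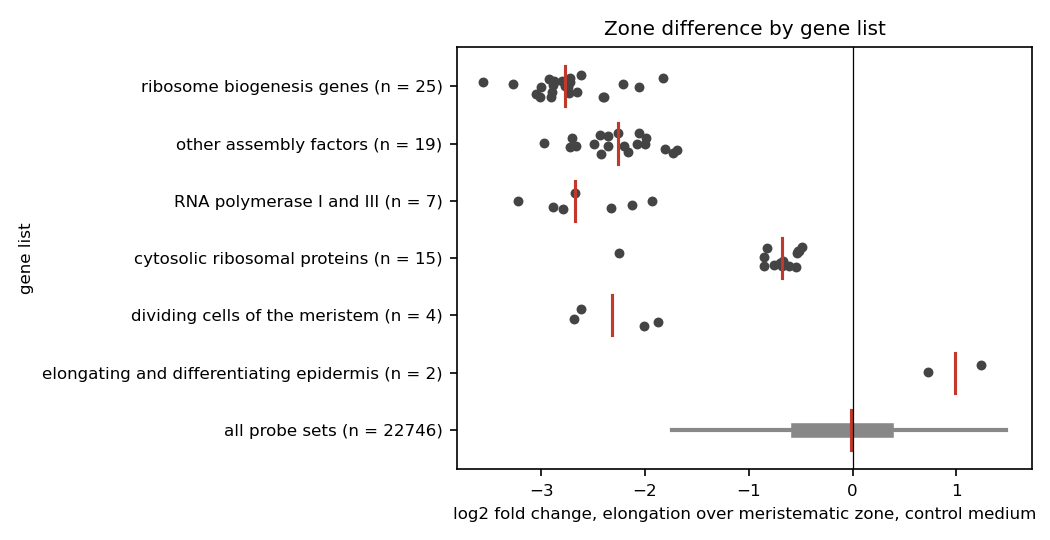
Log2 fold change of the elongation over the meristematic zone on control medium (x axis) for the genes of each list (y axis, with the number measured). Points are genes, red bars are medians, and for all 22746 probe sets the thin line spans the 5th to 95th percentile and the thick bar the quartiles; the ribosome biogenesis genes lie between -3.56 and -1.83, and the cytosolic ribosomal proteins have a median of -0.68.

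Markers of the zones moved with the genes. Of 13 markers of dividing cells 4 were measured, and AUR1, AUR2, AUR3 and BUBR1, which act in mitosis, were all lower in the elongation zone (log2 fold changes of -2.01, -2.62, -1.88 and -2.68 in that order). None was at 0, and BUBR1 was under a signal of 16 on 9 of the 28 arrays. Of 7 markers of elongating and differentiating epidermis 2 were measured, and EXPA7 (1.24 ± 0.19) and EXPA18 (0.73 ± 0.12) were higher. EXPA7 was under a signal of 16 on 11 arrays and EXPA18 on 3, so their fold changes and sums rest on dim signals. Markers of xylem, root cap and endodermis were not measured by the same rule. In whole zones, fewer cells of a type and less RNA per cell cannot be told apart, and the part of the markers in the result was not tested.

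On H2O2 the zones differed in the same way. Of the 25 genes 25 were called lower in the elongation zone (limma, Benjamini-Hochberg), against 32.9% of all probe sets called lower and 56.5% called at all, with a median log2 fold change of -3.04 and a range from -3.73 to -2.03. AT3G12860 was again at the low end, with signals of 698, 957 and 1305 (lowest, median, highest of 6) in meristematic and 38.3, 48.2 and 126 in elongation zone arrays. AT1G42440 was again at the other end, with 688, 931 and 1000.1 against 157, 183 and 304. In 25 of 25 genes no H2O2 array of one zone overlapped the other, which held for 24.2% of all probe sets, and among control arrays 25 of 25 did not overlap, against 20.5%.

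The zone difference was smallest at 0 h. The median over the 25 genes of the difference in log2 signal was -2.28 at 0 h, -3.11 at 1 h, -2.82 at 3 h and -2.97 at 6 h on control medium, and -2.90, -2.99 and -3.18 at 1, 3 and 6 h on H2O2. At 0 h the genes lay between -3.02 and -1.59.

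The next comparison asked how the genes stood after transfer to fresh control medium, as the mean of 1, 3 and 6 h against 0 h. Of the 25 genes 3 fell in the elongation zone, against 0.356% of all probe sets called lower and 0.69% called at all. An unadjusted p under 0.05 (limma) was seen in 23 of 25 genes, against 3494 of 22746 probe sets. All 25 log2 fold changes were negative, with a median of -0.95 and a range from -1.30 to -0.15, and the median of all probe sets was -0.01. Both 0 h arrays were above all 6 later control arrays in 20 of 25 genes, which held for 7.08% of all probe sets.

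The NOP58 type gene AT3G05060 had elongation zone signals of 1140 and 1245 at 0 h. They were 518 and 303 at 1 h, 777 and 385 at 3 h, and 589 and 416 at 6 h on control medium (arrays numbered 1 and 2). All 6 later values were lower than both at 0 h, with a log2 fold change of -1.30 ± 0.27 for AT3G05060 (limma adjusted p = 0.042). The BMS1 type gene AT1G06720 had 190 and 192 at 0 h, then 132 and 45.7 at 1 h, 102 and 67.8 at 3 h, and 93.4 and 78.1 at 6 h. Again no later array reached the 0 h values, and the log2 fold change of AT1G06720 was -1.07 ± 0.24 (limma adjusted p = 0.0471). The NOC2 type gene AT2G18220 had 155 and 109 at 0 h, then 74.5 and 51.9, 91.4 and 65.8, and 55.5 and 55.9 at 1, 3 and 6 h. Its later values were lower on each array, and its log2 fold change was -0.86 ± 0.17 (limma adjusted p = 0.0365).

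The genes next in adjusted p, AT3G03920 (-0.84 ± 0.20, limma adjusted p = 0.0512) and AT3G10530 (-1.09 ± 0.26, adjusted p = 0.0518), just missed the threshold. At the other end AT1G10490, the acetyltransferase gene, had elongation zone signals of 96.1 and 88.9 at 0 h, 115 and 60.9 at 1 h, 71.8 and 68.8 at 3 h and 104 and 82.8 at 6 h. Its groups overlapped, and the log2 fold change of AT1G10490 was -0.15 ± 0.16 (adjusted p = 0.744).

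The number of calls rested on single arrays. It was 0 without the elongation zone array numbered 1 of 0 h, and 0 without the array numbered 2 of 1 h, 3 h or 6 h on control medium. The number rose without the array numbered 1 of 1 h or of 3 h. How many of all probe sets were called in such fits is not given here, so the rise cannot be read as particular to the 25 genes. A fit to these 8 arrays alone gave 0. Same-numbered arrays of the 4 elongation control groups deviated together (correlations of 0.180 to 0.321 over probe sets in all 6 pairs of groups), and with the replicate number as a block 12 of 25 were called lower. The median over the 25 genes stayed between -1.13 and -0.75 under the alternatives tried.

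In the meristematic zone the same comparison gave 0 of 25 called by limma, against 0.286% of all probe sets. An unadjusted p under 0.05 (limma) was seen in 2 of 25 genes, against 1724 of 22746 probe sets. The median log2 fold change was -0.26, with 24 of 25 genes negative, and both 0 h arrays were above all 6 later arrays in 11 of 25 genes (5.09% of all probe sets). The genes with the largest values were AT3G57940 (-0.43 ± 0.29, limma adjusted p = 0.824), AT4G04940 (-0.39 ± 0.41, adjusted p = 0.898) and AT1G10490 (-0.39 ± 0.16, adjusted p = 0.56). The difference between the zones in this change, added after the values were seen, had a median of -0.72 over the 25 genes, and 0 were called (limma, against 0.0044% of all probe sets). For it 6 genes had an unadjusted p under 0.05 (limma), against 1410 of 22746 probe sets. AT3G05060 had the largest difference at -1.06 ± 0.39 (limma adjusted p = 0.626), followed by AT1G52930 (-0.92) and AT5G08180 (-0.91).

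Zone markers moved over the same hours. The summed signal of the 4 dividing-cell markers in the elongation zone was 368 to 397 at 0 h, 252 to 453 at 1 h, 220 to 272 at 3 h and 211 to 255 at 6 h on control medium. That of the 2 epidermis markers was 49.3 to 50.3 at 0 h, 73.1 to 80.8 at 1 h, 110 to 128 at 3 h and 133 to 152 at 6 h. Sums moved in the meristematic zone too. The dividing-cell sum there was 1962 to 2175 at 0 h and 1506 to 1782 at 1 h, then 1172 to 1544 at 3 h and 1417 to 1422 at 6 h. The epidermis sum there was 24.4 to 30.9 at 0 h and 23.6 to 34.3 at 1 h, then 21.0 to 41.6 at 3 h and 39.7 to 51.1 at 6 h. Both elongation arrays of 0 h also lay nearest to the meristematic arrays on the first component. The part of these in the fall of the 3 genes was not tested.

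**Figure D3:**
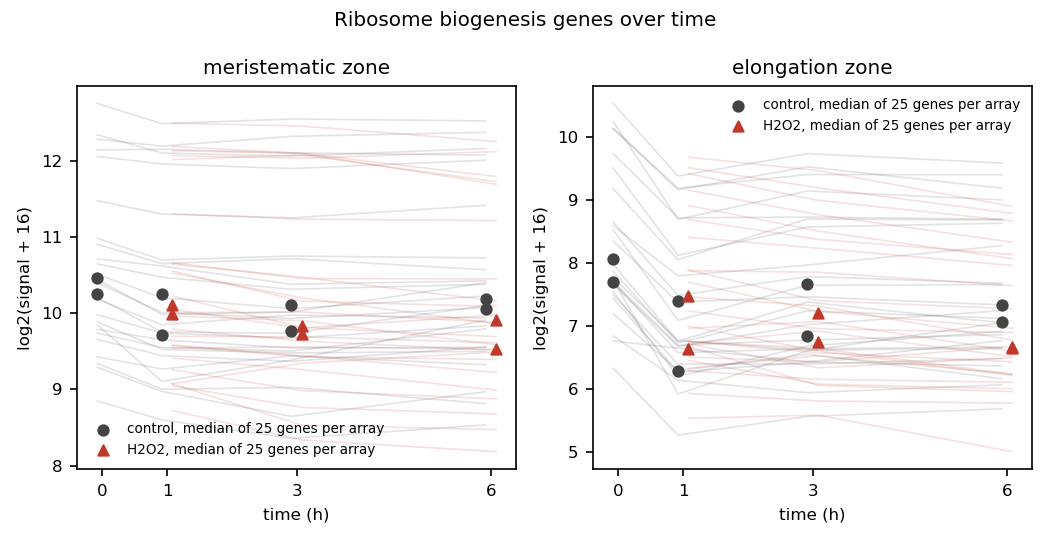
Log2(signal + 16) against hours after transfer in the meristematic (left) and elongation zone (right), with different y ranges. Thin lines are the group means of the 25 genes, grey on control medium and red on H2O2, circles and triangles are the median of the 25 genes on each array; in the elongation zone both 0 h arrays, at 8.07 and 7.70, are above all later arrays.

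Replicates of the elongation zone differed in all 25 genes in the same direction in 3 of the 7 groups. All 25 were higher in the array numbered 1 than in the array numbered 2 at 1 h on control medium (median difference 1.10 on the log2 scale), at 1 h on H2O2 (0.92) and at 3 h on control medium (0.82). Of all probe sets, controls included, 53.4%, 53.6% and 50.1% were higher in the array numbered 1 in these groups. At 3 h on H2O2 4 of 25 were higher in the array numbered 1 (median -0.45), against 43.4% of all probe sets. At 0 h 19 of 25 were (median 0.31), at 6 h on control medium 23 of 25 (0.33) and at 6 h on H2O2 12 of 25 (-0.038). The shares of all probe sets there were 55.0%, 53.7% and 47.0%. In the 1 h and 3 h groups the array with the higher signals lay nearer to the meristematic side of the first component, which was computed without these genes. The positions were 60.8 against 95.1, 62.8 against 87.8, 67.9 against 83.7 and, at 3 h on H2O2, 94.6 for the array numbered 1 against 77.0. In the meristematic zone the largest median difference between replicates was 0.44, at 1 h on control medium. Whether the position of the cut played a part was not tested.

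**Figure D4:**
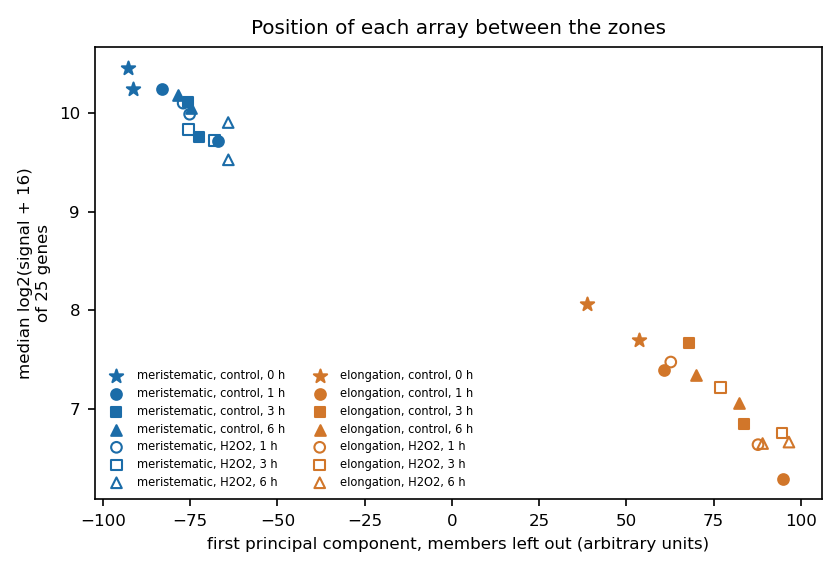
Median log2(signal + 16) of the 25 genes on each array (y axis) against the array's position on the first principal component of all other probe sets (x axis, arbitrary units). Each point is 1 array, with colour for the zone, shape for the time and open symbols for H2O2; the elongation arrays have their highest median, 8.07, at position 38.7 and their lowest, 6.29, at 95.1.

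The study compared H2O2 with control medium to find how each zone responded. None of the 25 genes was called at any time in either zone by limma with Benjamini-Hochberg adjustment. The share of all probe sets called was 0.0% at 1 h, 0.0396% at 3 h and 0.136% at 6 h among meristematic arrays, and 0.0308%, 0.136% and 0.0572% among elongation arrays. Among meristematic arrays 0 of 25 genes had an unadjusted p under 0.05 (limma) at each time. Of all 22746 probe sets 511, 1148 and 1827 did at 1, 3 and 6 h. Among elongation arrays 2 of 25 genes had such a p at each time, against 1521, 1319 and 1782 probe sets.

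At 6 h all 25 log2 fold changes were negative in both zones, with a median of -0.35 for the meristematic and -0.52 for the elongation zone, while the medians over all probe sets were -0.01 and -0.01. Both H2O2 arrays were below both control arrays in 22 of 25 genes in the meristematic zone (21.4% of all probe sets) and in 21 of 25 in the elongation zone (21.6%). These values are descriptions, because no gene passed the test.

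The early large subunit gene AT3G22660 was among the 3 genes with the largest values in both zones at 6 h. In the meristematic zone its signals were 1604 and 1752 on control medium and 1148 and 1108 on H2O2, a log2 fold change of -0.57 ± 0.38 (limma adjusted p = 0.773). Its elongation zone signals were 218 and 163 on control medium and 95.0 and 125 on H2O2, a log2 fold change of -0.71 ± 0.38 (adjusted p = 0.69). Neither pair of groups overlapped for AT3G22660, and neither difference passed.

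The UTP12 type gene AT3G21540 had meristematic signals of 767 and 709 on control medium and 459 and 530 on H2O2 at 6 h (log2 fold change -0.57 ± 0.35, limma adjusted p = 0.738). The NOP56 type gene AT3G12860 had 1155 and 1209 against 942 and 698 (-0.53 ± 0.44, adjusted p = 0.841). Among elongation zone arrays the UTP21 type gene AT4G04940 had 138 and 98.2 on control medium and 53.7 and 65.7 on H2O2 (-0.81 ± 0.51, adjusted p = 0.746). The NOP14 type gene AT1G69070 had 156 and 118 against 68.8 and 82.2 (-0.73 ± 0.33, adjusted p = 0.611). In each of these cases both H2O2 arrays were the lower ones.

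At earlier times the values were mixed. At 1 h in the meristematic zone the median log2 fold change was 0.01, with 15 of 25 genes positive, and no gene had both H2O2 arrays above both control arrays (14.6% of all probe sets) or below them (11.1%). The largest values there were AT2G40360 (-0.12 ± 0.38), AT4G26600 (0.12 ± 0.37) and AT1G42440 (0.11 ± 0.39), each with a limma adjusted p of 1. At 1 h in the elongation zone 23 of 25 were positive with a median of 0.26, led by IMP4 (0.80 ± 0.35, adjusted p = 0.684), AT2G40430 (0.64 ± 0.26, adjusted p = 0.67) and YAO (0.48 ± 0.35, adjusted p = 0.883). That median was 0.79 without the control array numbered 1 and -0.37 without the control array numbered 2, so its direction rested on 1 array. No gene had both H2O2 arrays above (12.1% of all probe sets) or below (18.3%) both control arrays there.

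At 3 h the median was -0.09 in the meristematic zone, where 7 of 25 genes had both H2O2 arrays below both control arrays (14.3% of all probe sets) and 1 had both above (16.4%). AT1G69070 (-0.46 ± 0.33), AT2G40360 (-0.29 ± 0.38) and AT3G22660 (-0.28 ± 0.38) had the largest values, each with a limma adjusted p of 1. In the elongation zone the median was -0.22, and 4 of 25 genes had both H2O2 arrays below (20.5%). AT3G22660 (-0.55 ± 0.38, adjusted p = 0.952), AT3G03920 (-0.53 ± 0.24, adjusted p = 0.831) and AT2G18220 (-0.49 ± 0.21, adjusted p = 0.79) had the largest values. Without the control array numbered 1 of that time the median was 0.14, and without the one numbered 2 it was -0.65.

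**Figure D5:**
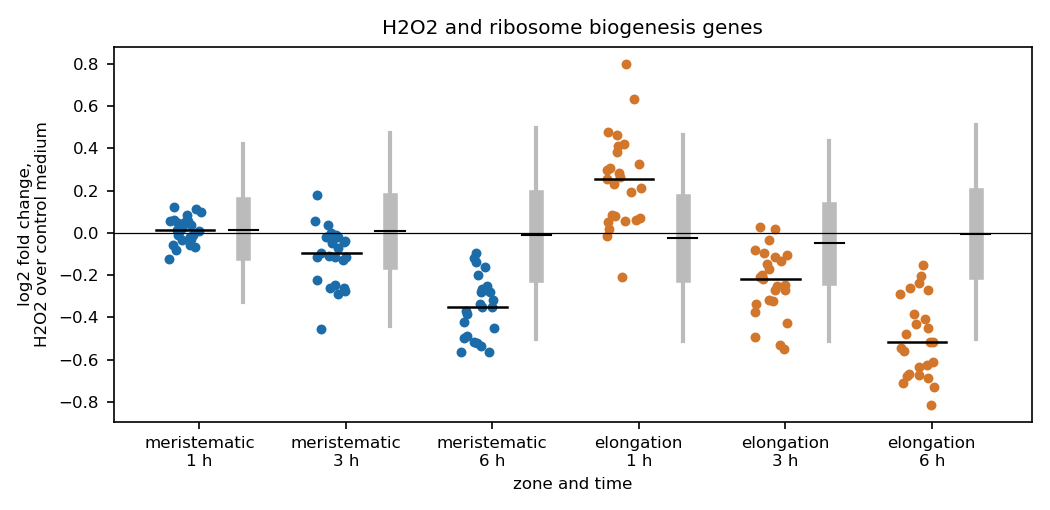
Log2 fold change of H2O2 over control medium (y axis) for the 25 genes at each time in each zone (x axis). Points are genes, long bars their medians, and beside each the grey box and line give the quartiles and the 5th to 95th percentile of all probe sets; at 6 h all 25 points are under 0 in both zones, with medians of -0.35 and -0.52.

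Over 1, 3 and 6 h together the mean H2O2 effect on the 25 genes had a median of -0.12 for the meristematic and -0.17 for the elongation zone, with 0 genes called in either (limma, against 0.259% and 0.506% of all probe sets). In either zone 0 of the 25 genes had an unadjusted p under 0.05 (limma), against 1314 and 2025 of 22746 probe sets. The largest values were AT1G69070 (-0.30 ± 0.19, adjusted p = 0.992), AT3G22660 (-0.30 ± 0.22) and AT3G12860 (-0.25 ± 0.25) in the meristematic zone. Those of the elongation zone were AT3G22660 (-0.35 ± 0.22, adjusted p = 0.688), AT3G03920 (-0.26 ± 0.14, adjusted p = 0.604) and AT1G69070 (-0.26 ± 0.19, adjusted p = 0.74). The difference between zones had a median of -0.02 and 0 calls (0.0% of all probe sets), with IMP4 (0.25 ± 0.28), AT1G52930 (-0.20 ± 0.30) and AT5G08180 (-0.17 ± 0.29) the largest.

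Added after the values were seen, the 6 h effect over both zones had a median of -0.45 over the 25 genes, with a range from -0.64 to -0.20. By limma 0 of 25 were called, against 0.444% of all probe sets. This count of calls was not 0 in a fit to only the arrays compared. An unadjusted p under 0.05 (limma) was seen in 4 of 25, against 2640 of 22746 probe sets. The H/ACA gene AT3G03920 had the smallest adjusted p (-0.45 ± 0.17, limma adjusted p = 0.284), and its signals were 4475 and 4117 on control medium against 3196 and 3390 on H2O2 in the meristematic zone, and 603 and 529 against 408 and 373 in the elongation zone. The largest values were AT3G22660 (-0.64 ± 0.27, limma adjusted p = 0.361), AT1G69070 (-0.59 ± 0.24, adjusted p = 0.326) and AT3G05060 (-0.52 ± 0.24, adjusted p = 0.402). The change of the H2O2 effect from 1 h to 6 h was negative in all 25 genes in both zones, with medians of -0.37 and -0.77 and 0 calls (limma, against 0.0044% and 0.0132% of all probe sets). An unadjusted p under 0.05 (limma) was seen in 0 and 5 of the 25 genes, against 1072 and 1539 of 22746 probe sets. The largest changes among the 25 genes were AT4G04940 (-1.23), IMP4 (-1.18) and AT2G40430 (-1.18) in the elongation zone. There the median was -1.41 without the 1 h control array numbered 1 and -0.24 without the one numbered 2.

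Other lists had values of the same sign at 6 h, with 0 calls in each. In the elongation zone 7 of 7 polymerase genes (median log2 fold change -0.47), 17 of 19 other assembly factors (-0.42) and 15 of 15 ribosomal protein genes (-0.35) were negative, and in the meristematic zone 6 of 7 (-0.33), 15 of 19 (-0.26) and 12 of 15 (-0.17) were. Of the 4 dividing-cell markers 4 were negative in both zones. Their summed signal at 6 h was 1417 to 1422 on control medium and 981 to 1218 on H2O2 in the meristematic zone, and 211 to 255 against 171 to 176 in the elongation zone. The summed signal of the 2 epidermis markers was 39.7 to 51.1 on control medium and 19.2 to 35.2 on H2O2 among meristematic arrays, and 133 to 152 against 82.4 to 149 among elongation arrays. EXPA18 had log2 fold changes of -0.69 ± 0.23 and -0.55 ± 0.23 in these zones, EXPA7 of 0.14 ± 0.37 and -0.06 ± 0.37, and neither was called (limma). On the first component the H2O2 arrays of 6 h lay at -64.1 and -64.1 in the meristematic zone, against -74.8 and -78.5 on control medium, and at 96.6 and 89.1 in the elongation zone, against 70.0 and 82.2. The part of these shifts in the values of the 25 genes was not tested.

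Within a medium, 1 h was also compared with the mean of 3 and 6 h. Of the 25 genes 0 were called on control medium in the meristematic zone (median log2 difference -0.01; 0.259% of all probe sets called) and 0 in the elongation zone (median -0.25; 0.4%). On H2O2 0 were called in the meristematic zone (median 0.22, 22 of 25 positive; 1.51%) and 0 in the elongation zone (median 0.31, 23 of 25 positive; 2.62%). Unadjusted p under 0.05 was seen in 0, 1, 0 and 4 of the 25 genes in that order (limma throughout). Where the count was not 0, both times in the elongation zone, all probe sets gave a background. On control medium 2280 of 22746 probe sets had such a p, and on H2O2 3256 had one. The gene nearest to the threshold was AT2G18220 on H2O2 in the elongation zone, with signals of 116 and 63.0 at 1 h, 50.8 and 50.6 at 3 h and 49.7 and 42.9 at 6 h. Both 1 h arrays of AT2G18220 were the highest, and the log2 difference was 0.66 ± 0.18 (limma adjusted p = 0.0509).

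The other largest values were AT1G52930 (0.62 ± 0.32) and AT3G05060 (0.61 ± 0.29) in the same comparison, AT3G57940 (0.57 ± 0.31), IMP4 (0.49 ± 0.30) and AT3G12860 (0.47 ± 0.38) on H2O2 in the meristematic zone, and AT4G04940 (-0.91 ± 0.44), AT2G40430 (-0.63 ± 0.23) and AT3G15460 (-0.60 ± 0.37) on control medium in the elongation zone. On control medium in the meristematic zone they were AT3G15460 (-0.54 ± 0.37), YAO (-0.23 ± 0.30) and AT5G15550 (0.22 ± 0.31). The median on H2O2 in the elongation zone was 0.88 without the 1 h array numbered 2 and -0.07 without the one numbered 1. On control medium there it was -0.77 without the 1 h array numbered 1 and 0.28 without the one numbered 2. Of the markers, AUR1 was called higher at 1 h than later on H2O2 in the elongation zone (0.68 ± 0.16, limma adjusted p = 0.0251).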

How the data were processed

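The deposited table holds 1 linear intensity per probe set and array for 22810 probe sets. MAS5 and GCRMA are both named in the submitters' processing notes, with no role given, and labelled RNA was made with 2 rounds of amplification, per the labels' protocols. The authors' intensity values had a mean of 250.02 to 250.03 on each array after the lowest and highest 2% were set aside, and array medians of 49.4 to 76.3, so arrays were scaled but not quantile normalised. Between 24.5% and 31.2% of probe sets per array were under a signal of 16. Detection calls were not used here. Among control probe sets the log2 ratio of 3' over 5' signal was 3.75 to 4.97 for actin. For GAPDH it was 0.17 to 0.78 on meristematic and -0.38 to 0.32 on elongation arrays. The part of these ratios in the zone difference was not tested.

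After 64 control probe sets were left out, log2(signal + 16) was fitted with 1 mean for each of the 14 groups in limma 3.58.1 under R 4.3.3 (eBayes with an intensity trend, 2-sided moderated tests, 14 residual and 5.64 prior degrees of freedom). Genes were named through the platform annotation and RefSeq gene IDs (TAIR10.1, names alone), and their roles are general knowledge of the families. All 25 genes had a mean signal of at least 50. The members, lists and comparisons were chosen with earlier results of these data known, and values were named by rule: each called gene, otherwise the 3 with the largest absolute log2 fold change, and up to 4 called genes of each other list. A list of 4 histone and nucleolar chromatin regulators had 0 measured loci. Sequences are not shown here. Scripts were tested on simulated data.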

Additional observations from a re-analysis of the deposited data

Results flagged for a closer look

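Each gene's signals were looked at in the groups of 6 or 8 arrays that share a zone and a medium (100 groups of arrays), and an array was picked out where its gap to the next array took up more of the whole range than Dixon's 95% critical value allows. This marked 5 arrays, and chance marks about 1 in 20 groups. In the meristematic zone on H2O2 they were AT4G04940 at 3 h in the array numbered 1 (778, the lowest of 6), AT5G11240 at 1 h in the array numbered 1 (966, the highest) and AT3G15460 at 1 h in the array numbered 2 (452, the lowest). In the elongation zone on H2O2 both were the 1 h array numbered 1, with the highest values of AT2G18220 (116) and AT1G10490 (111).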

How the results depend on the processing

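The zone result did not depend on the settings tried: 25 of 25 genes were called lower in the elongation zone on either medium under all of them. Median centring moved the median of all probe sets by 0.28 on control medium and 0.34 on H2O2 and turned 5910 higher and 7349 lower calls on control medium into 10595 and 5559, yet the median of the 25 genes was -2.49 (-2.70 after quantile normalisation) and that of the 15 ribosomal protein genes -0.40, with 15 of 15 lower. The count of genes lower after 0 h in the elongation zone was 1 without an intensity trend, 5 among probe sets with a mean signal of at least 50, 12 with the replicate number as a block, 23 without the 1 h control arrays numbered 1, 0 without those numbered 2, 0 with only the arrays compared, and 0 to 22 with 1 array left out; the cause was not tested. For 1 h against 3 and 6 h in the elongation zone, the count on control medium was 1 without the 1 h control arrays numbered 1 (0 to 1 with 1 array left out), and on H2O2 it was 1 with a pseudocount of 1, among probe sets with a mean signal of at least 50, or with the replicate block (0 to 1 with 1 array left out). With only the arrays compared, 3 genes were called for H2O2 at 6 h over both zones. The number of all probe sets called in that fit is not given here, so this count cannot be set against a background. Without 1 array of 1 h (or the 1 h control arrays of 1 number in both zones), signs turned in log2 values that had not passed the test, given here as ranges: for H2O2 at 1 h, AT2G40360 (-0.39 to 0.14, with 0.05 without the H2O2 array numbered 1), AT4G26600 (-0.14 to 0.39) and AT1G42440 (-0.10 to 0.33) in the meristematic zone and YAO (-0.19 to 1.15) in the elongation zone; for the zone difference in the mean H2O2 effect, AT1G52930 (-0.42 to 0.018) and AT5G08180 (-0.41 to 0.072); for 1 h against later on control medium in the meristematic zone, AT5G15550 (-0.039 to 0.47), AT3G15460 (-1.10 to 0.011) and YAO (-0.49 to 0.041), and on H2O2 in the elongation zone AT1G52930 (-0.036 to 1.28). Over all groups, same-numbered arrays had a median correlation of deviations of 0.0992 (91 pairs of groups, lowest -0.11, highest 0.438 between the 1 h control groups, 45 over 0.1). All 6 pairs among the elongation control groups were over 0.1, the labels do not say what a number shares, and the main results therefore hold no block; the replicate block changed no other count of the 25 genes.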
